A study of Mus musculus with 6 samples.

Results

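Of the 41710 genes in the files, 9 were taken by name for their place in glycolysis and in the handling of its end products: Gpi1, Aldoa, Tpi1, Gapdh, Eno1, Pkm, Mdh1, Ldha and Bsg. All 9 were found, Aldoa through its Ensembl identifier ENSMUSG00000030695, because the files list it as Aldoa_1. Pancreatic islets of 3 Trpm7R/R mice and 3 WT mice were sequenced, with 1 library per mouse and no other group, to compare gene expression after an HFD. Trpm7R/R mice carry on both alleles, in every cell of the body, a single base change that inactivates the kinase of TRPM7, on a C57BL/6 background, so differences can arise outside the islet as well as in it. WT mice were their littermates from matings of heterozygotes. All mice, Trpm7R/R and WT, received the diet with 45% of its energy from fat from 8 weeks of age for 16 weeks. Islets rested in culture medium after isolation, and libraries were made from lysed islets with low-input chemistry. The files count reads and cannot show a single base, so the mutation itself was not checked.

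Glycolysis splits glucose into pyruvate in the cytosol, and in β cells this step couples the blood glucose level to ATP production and insulin release. Because β cells normally keep lactate dehydrogenase A (Ldha) and the lactate transporter gene Slc16a1 very low, their pyruvate enters mitochondria, and the NADH made by Gapdh is passed on by shuttles such as the malate-aspartate shuttle, which uses cytosolic malate dehydrogenase (Mdh1). Bsg encodes basigin, a membrane glycoprotein that brings lactate transporters to the cell surface.

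Libraries rested on 17213285 to 20307909 mapped reads, of which exons held 1312128 to 2135466, and introns held 75.7% to 84.2% of reads in genes. Exon densities below are set against an intron background, which in each library is the median number of reads per intron base among 5402 genes whose introns span 50000 bases or more. Exon reads of 80 ribosomal protein genes stood at 113 to 162 RPM (reads scaled to 1000000 mapped reads) in Trpm7R/R libraries and 256 to 555 RPM in WT libraries. The summed exon density of β cell markers was 84.1 to 173 times the background in Trpm7R/R libraries and 256 to 625 times in WT libraries. The same sum was 12.8 to 25.1 times in Trpm7R/R and 45.7 to 116 times in WT for α cell markers, and 87.9 to 166 times in Trpm7R/R and 536 to 904 times in WT for PP cell markers. δ cell markers followed with 1.13 to 2.88 times in Trpm7R/R and 3.73 to 7.24 times in WT. All 7 β cell, 4 α cell, 3 δ cell and 2 PP cell markers had reads in every library. Acinar, duct, endothelial, leukocyte, stromal and red blood cell markers stayed at or under 3.40 times the background in every library, with the acinar Ctrb1, the duct Krt19, the endothelial Plvap and several globin genes at 0 in 1 library or more. The summed endocrine markers thus moved with the genotype in the direction of most of the 9 genes, and their part in the results was not tested. Single β cell markers moved unequally, with log2 fold changes of Trpm7R/R over WT of -2.35 for Mafa, -0.67 for G6pc2 and -0.26 for Slc2a2. The genotypes overlapped in G6pc2. In bulk RNA, fewer cells of a type and less RNA per cell cannot be told apart. Reads of the Y chromosome were near absent in Trpm7R/R replicates 6 and 8 and present in the other 4 libraries, so this split and the genotype were partly confounded.

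In Trpm7R/R islets 5 of the 9 genes, Aldoa, Gapdh, Pkm, Mdh1 and Bsg, had lower normalized exon counts in every library than in any WT library, Eno1, Gpi1, Tpi1 and Ldha overlapped, and none of the 9 passed edgeR's test after adjustment. The largest differences were those of Bsg, at 7.34 ± 1.92 normalized counts in Trpm7R/R and 45.5 ± 14.3 in WT (SD, n = 3 each), and Aldoa, at 11.0 ± 4.44 in Trpm7R/R and 52.6 ± 19.2 in WT (SD, n = 3 each). Normalized counts are exon reads divided by the TMM-scaled library size and multiplied by its mean over libraries. All 9 genes had few reads, between 86 and 137 exon reads together per Trpm7R/R library and between 187 and 310 per WT library. With edgeR's quasi-likelihood test, 6 of the 9 genes passed the count filter and 0 reached an adjusted p of 0.05 or less, against 0.0257% of the 11674 genes tested. DESeq2, which called 0.831% of all genes tested, and limma-voom, which called 3.06%, each called 2 of the 9, Aldoa and Bsg, both lower in Trpm7R/R. At an unadjusted p of at most 0.05, 5 of the 6 were lower in Trpm7R/R, against 4.57% of all genes tested, and 0 were higher, against 1.14%. The 5 genes without overlap stand against 6.84% of all genes tested whose Trpm7R/R libraries all lay below WT. The median log2 fold change of Trpm7R/R over WT was -1.22 over the 6 genes and 0.01 over all genes tested. Lower values were not particular to these genes. Ribosomal protein genes stood at 113 to 162 RPM in Trpm7R/R libraries and 256 to 555 in WT libraries, and the endocrine marker sums were lower as well. The shares and the median of the 6 genes come from genes that passed a filter on counts and are a description of them. Aldoa, Gapdh, Mdh1 and Bsg had 7, 6, 9 and 5 exon reads in Trpm7R/R replicate 6, and 20 or more in every WT library. These genes passed the filter through their WT counts, and genes kept that way lean towards lower values in Trpm7R/R.

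**Figure D1:**
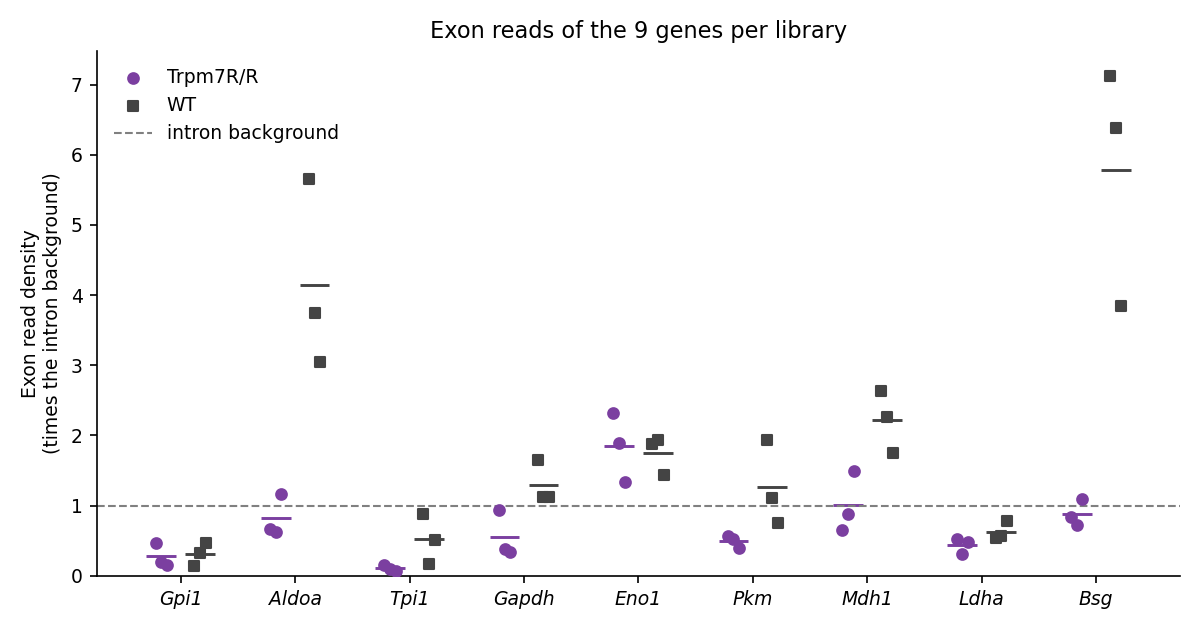
Exon read density of the 9 genes in each library, in multiples of the intron background of the same library (vertical axis), for Trpm7R/R (circles) and WT (squares), with group means as bars (n = 3 each). Bsg lies between 0.72 and 1.10 in Trpm7R/R libraries and between 3.85 and 7.13 in WT libraries, while Gpi1, Tpi1 and Ldha lie below 1 in all libraries.

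Density per exon base placed the genes against what unspliced or genomic sequence gives. In Trpm7R/R islets the mean exon density ran from 0.11 times the background for Tpi1 to 1.85 times for Eno1, and in WT islets from 0.31 times for Gpi1 to 5.79 times for Bsg. The Trpm7R/R order was Eno1, Mdh1, Bsg, Aldoa, Gapdh, Pkm, Ldha, Gpi1 and Tpi1, and each gene's range overlapped that of its neighbours. The WT order was Bsg, Aldoa, Mdh1, Eno1, Gapdh, Pkm, Ldha, Tpi1 and Gpi1, and of neighbours in it only Aldoa, from 3.04 times, and Mdh1, up to 2.64 times, did not overlap. Aldoa and Bsg thus stood first in WT islets and close to 1 in Trpm7R/R islets. The exon length behind these densities joins the exons of all annotated transcripts, so a density below 1 is a value per base of that union.

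RefSeq (GRCm38.p6) lists a promoter of 300 bases around the transcription start for 8 of the 9 genes, and for Bsg none was used here. Where several starts are listed, the one with the most annotated protein-coding transcripts starting close by was taken. Such transcripts numbered 3 of 12 for Ldha, 1 of 6 for Gapdh and 0 of 2 for Mdh1. The core of the hypoxia response element, ACGTG on either strand (CACGT when read on the other), occurs in 3 of these 8 promoters, those of Gapdh, Mdh1 and Ldha, and in 19.6% of 32851 promoters of the same length. The E-box CACGTG, which contains that core on both strands, occurs in 1 of the 8 and in 7.15% of all, and the GC box GGGCGG on either strand in 5 of the 8 and in 35.7% of all. The promoters with ACGTG are shown because they set apart Ldha, with 5 matches, each E-box counting once per strand, from Gapdh and Mdh1 with 1 each; capitals mark ACGTG and GGGCGG on either strand.
Gapdh (chr6:125165724-125166023, minus strand): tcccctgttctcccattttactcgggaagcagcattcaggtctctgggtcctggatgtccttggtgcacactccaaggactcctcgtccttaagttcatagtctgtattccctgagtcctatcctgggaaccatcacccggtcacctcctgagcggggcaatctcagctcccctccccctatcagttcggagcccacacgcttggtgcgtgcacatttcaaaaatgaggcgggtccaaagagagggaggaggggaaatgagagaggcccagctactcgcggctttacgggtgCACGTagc
Mdh1 (chr11:21571885-21572184, minus strand): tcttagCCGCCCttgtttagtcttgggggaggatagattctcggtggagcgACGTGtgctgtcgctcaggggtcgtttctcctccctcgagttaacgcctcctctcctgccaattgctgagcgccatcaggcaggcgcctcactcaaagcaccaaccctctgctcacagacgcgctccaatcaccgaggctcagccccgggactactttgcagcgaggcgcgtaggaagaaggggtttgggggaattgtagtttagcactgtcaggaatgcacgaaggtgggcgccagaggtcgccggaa
Ldha (chr7:46845554-46845853, plus strand): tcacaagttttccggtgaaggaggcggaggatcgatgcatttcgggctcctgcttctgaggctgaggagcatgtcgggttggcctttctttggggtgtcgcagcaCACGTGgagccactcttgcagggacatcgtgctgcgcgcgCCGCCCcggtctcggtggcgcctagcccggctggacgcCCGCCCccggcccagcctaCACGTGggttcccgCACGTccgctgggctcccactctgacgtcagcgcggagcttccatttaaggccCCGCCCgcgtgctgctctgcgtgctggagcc
A match of letters describes the window only. Of the genes whose normalized exon counts did not overlap between genotypes, Gapdh and Mdh1 had 1 match each, and Aldoa and Pkm had 0. Ldha, with 5 matches, overlapped in these counts. A relation between matches and expression was not tested.

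Among the enzymes of the upper, preparatory stage of the pathway, only Aldoa passed the count filter. In the fit over all genes with at least 1 count, log2 fold changes were -2.15 for Aldoa and -2.05 for Tpi1, the latter at very few reads. Gpi1, on chromosome 7, encodes glucose-6-phosphate isomerase, which turns glucose 6-phosphate into fructose 6-phosphate. It had 14, 5 and 5 exon reads in Trpm7R/R replicates 4, 6 and 8, against 4, 9 and 13 in WT replicates 1, 2 and 3. The groups overlapped, with the highest value in a Trpm7R/R library and the lowest in a WT library. Gpi1 stayed below the count filter, and in a fit over all genes with at least 1 count its log2 fold change was -0.02 (standard error, SE, 0.59, edgeR adjusted p = 0.992).

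Aldoa, on chromosome 7, encodes aldolase A, which cleaves fructose 1,6-bisphosphate. It had 9, 7 and 17 exon reads in Trpm7R/R replicates 4, 6 and 8, against 75, 47 and 38 in WT replicates 1, 2 and 3. Its RPKM was 0.201 ± 0.0781 in Trpm7R/R and 0.987 ± 0.342 in WT (SD, n = 3 each), and the groups did not overlap. The log2 fold change was -2.24 (SE 0.43, unadjusted p = 0.000139, edgeR adjusted p = 0.0542), just outside the threshold. Reads across exon-exon junctions, which come from spliced RNA, numbered 1 over all Trpm7R/R libraries and 17 over all WT libraries. Every exon read of Aldoa was uniquely mapped, and the second row of that name, Aldoa_2, held at most 1 exon read per library. Beside DESeq2 and limma-voom, Aldoa and Bsg, alone of the 9, were called lower with upper quartile scaling (0.257% of all genes tested called), over all genes with at least 1 count (0.443%), over genes with at least 10 reads in every library of 1 genotype (0.649%), and by edgeR's likelihood ratio (1.39%) and exact tests (1.32%). Bsg alone was called with library size scaling (0.197%). Without Trpm7R/R replicate 4, Aldoa (adjusted p = 0.0265) and Bsg (0.0192) were called lower by edgeR, with 1.55% of all genes tested. The edgeR fit without WT replicate 3 called Bsg (adjusted p = 0.0294) but not Aldoa (0.0583), with 0.25% of all genes tested.

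Tpi1, on chromosome 6, encodes triosephosphate isomerase, which interconverts the 2 products of aldolase. It had 2, 1 and 1 exon reads in Trpm7R/R replicates 4, 6 and 8, against 11, 2 and 6 in WT replicates 1, 2 and 3. Raw reads met at 2, and no read crossed an exon-exon junction in any library. Its exon density was 0.07 to 0.16 times the background in Trpm7R/R libraries and 0.17 to 0.88 times in WT libraries, without overlap (2-sided exact permutation test, p = 0.1, the smallest possible). In the fit over all genes with at least 1 count the log2 fold change of Tpi1 was -2.05 (SE 0.88, unadjusted p = 0.0216, edgeR adjusted p = 0.681), so no difference was called at this depth.

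In the lower stage of the pathway, where ATP and NADH are made, Gapdh and Pkm were lower in every Trpm7R/R library while Eno1 was not. Gapdh, on chromosome 6, encodes glyceraldehyde-3-phosphate dehydrogenase, the step that yields NADH, and is widely used as a reference transcript. Gapdh had 18, 6 and 7 exon reads in Trpm7R/R replicates 4, 6 and 8, against 31, 20 and 20 in WT replicates 1, 2 and 3. The groups lay apart by 2 reads, Trpm7R/R replicate 4 being close to WT. The log2 fold change was -1.15 (SE 0.48, unadjusted p = 0.0304, edgeR adjusted p = 0.689). Every Gapdh read counted was uniquely mapped, although 58.4% of the 50-base words of its annotated transcripts also occur in 226 other genes, mostly processed pseudogenes, so its count may leave out part of its RNA.

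Pkm, on chromosome 9, encodes the muscle type pyruvate kinases, which make pyruvate and ATP in the last step of glycolysis. It had 13, 10 and 10 exon reads in Trpm7R/R replicates 4, 6 and 8, against 44, 24 and 16 in WT replicates 1, 2 and 3. The Trpm7R/R values lay close together, whereas WT replicate 1 was well above WT replicate 3. The log2 fold change was -1.29 (SE 0.45, unadjusted p = 0.0133, edgeR adjusted p = 0.473). When libraries were scaled by ribosomal protein genes, which moved the median of all genes to 1.33, the log2 fold changes of Gapdh, Pkm and Mdh1 turned to 0.12, 0.04 and 0.31, still below that median.

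Eno1, on chromosome 4, encodes α-enolase, which makes phosphoenolpyruvate. It had 58, 39 and 36 exon reads in Trpm7R/R replicates 4, 6 and 8, against 46, 45 and 33 in WT replicates 1, 2 and 3. The genotypes overlapped throughout, and the log2 fold change was 0.15 (SE 0.33, edgeR adjusted p = 1.00), of negative sign in 3 of 21 alternatives. Scaled by ribosomal protein genes, Eno1 was called higher at 1.50, as 61.2% of all genes were called in either direction and their median was 1.33. Eno1 was also the only gene of the 9 with exon reads that mapped to several places. Uniquely mapped exon reads numbered 21, 9 and 13 in Trpm7R/R replicates 4, 6 and 8, against 13, 23 and 10 in WT replicates 1, 2 and 3, or 32.3% of Eno1 exon reads over Trpm7R/R libraries and 37.1% over WT libraries. Of its 50-base words 49.5% also occur in other genes, chiefly the retrocopy Eno1b and the pseudogene Gm4735, so the Eno1 count is uncertain. Eno1b itself was given 8, 5 and 17 exon reads in Trpm7R/R replicates 4, 6 and 8, against 8, 13 and 11 in WT replicates 1, 2 and 3, with none across a junction.

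**Figure D2:**
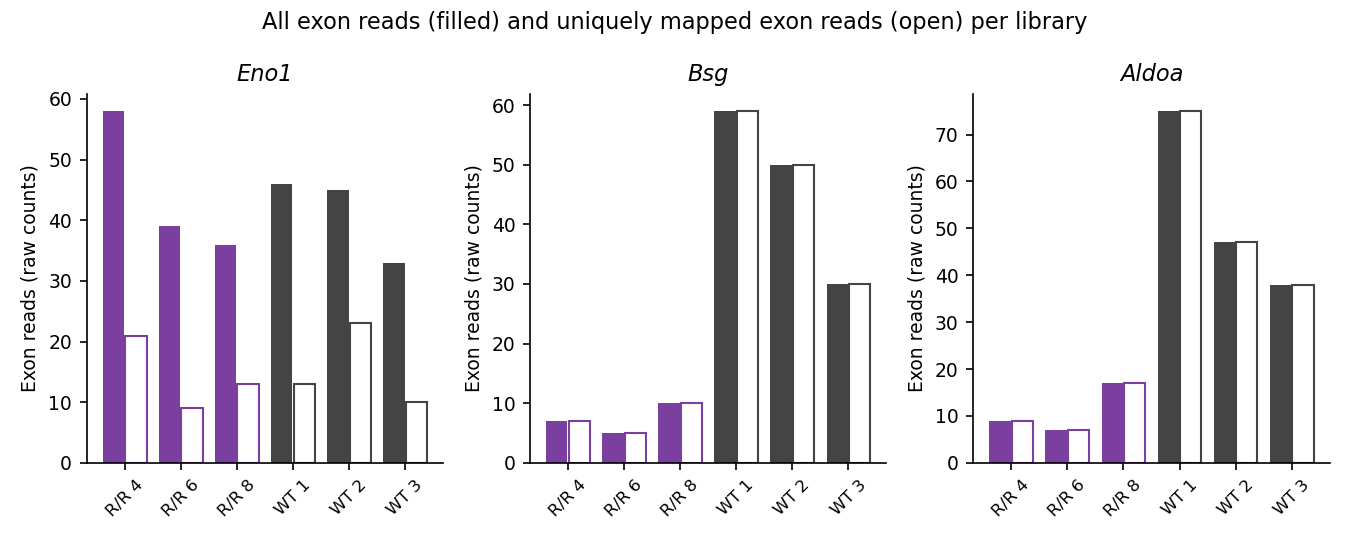
Raw exon reads of Eno1, Bsg and Aldoa in each library (vertical axis), all reads as filled bars and uniquely mapped reads as open bars, with Trpm7R/R libraries left of WT libraries. The bars of Bsg and Aldoa are equal in pairs, while unique reads make up 23.1% to 36.2% of Eno1 reads in Trpm7R/R libraries and 28.3% to 51.1% in WT libraries.

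Eno1 held most junction reads of the 9 genes. It had 33, 27 and 21 exon-exon reads in Trpm7R/R replicates 4, 6 and 8, against 30, 19 and 21 in WT replicates 1, 2 and 3. Of these, 0 of 81 reads in Trpm7R/R and 3 of 70 in WT were uniquely mapped. In the fit of exon-exon reads, which kept 181 genes and Eno1 alone of the 9, its log2 fold change was 1.67 (SE 0.47, unadjusted p = 0.00384, edgeR adjusted p = 0.120). There 0% of the 181 genes were called, and 16% were higher in Trpm7R/R at an unadjusted p of at most 0.05. In a fit over all genes with at least 1 exon-exon read, the log2 fold change of Eno1 was 0.94 (SE 0.46, unadjusted p = 0.0412, edgeR adjusted p = 0.622). Raw exon-exon reads of Eno1 overlapped between the genotypes, with means of 27.0 in Trpm7R/R and 23.3 in WT. In the fit without WT replicate 3, Eno1 was called higher (log2 fold change 2.03, edgeR adjusted p = 0.00484), in a fit that called 13.2% of its 242 genes in either direction.

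For the genes of NADH transfer and lactate, Bsg and Mdh1 were lower in every Trpm7R/R library and Ldha was low in both genotypes. Mdh1, on chromosome 11, encodes cytosolic malate dehydrogenase. It had 8, 9 and 20 exon reads in Trpm7R/R replicates 4, 6 and 8, against 32, 26 and 20 in WT replicates 1, 2 and 3. Raw reads of Trpm7R/R replicate 8 equalled those of WT replicate 3, and after scaling they stood at 18.9 and 20.2 normalized counts. The log2 fold change was -1.04 (SE 0.43, unadjusted p = 0.0319, edgeR adjusted p = 0.702). Exon-exon reads of Mdh1 numbered 1, 1 and 3 in Trpm7R/R replicates 4, 6 and 8, against 7, 4 and 3 in WT replicates 1, 2 and 3. None of its 50-base words occurs in another annotated gene.

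Ldha, on chromosome 7, encodes the lactate dehydrogenase subunit that turns pyruvate into lactate. It had 8, 4 and 8 exon reads in Trpm7R/R replicates 4, 6 and 8, against 8, 8 and 11 in WT replicates 1, 2 and 3. These raw reads overlapped. Its exon density was 0.31 to 0.52 times the background in Trpm7R/R libraries and 0.53 to 0.77 times in WT libraries. These ranges lay apart (2-sided exact permutation test, p = 0.1, the smallest possible), but were below the density of intron sequence in every library. In the fit over all genes with at least 1 count the log2 fold change of Ldha was -0.32 (SE 0.60, edgeR adjusted p = 0.991), so Ldha mRNA could not be told from background at this depth.

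Bsg, on chromosome 10, had 7, 5 and 10 exon reads in Trpm7R/R replicates 4, 6 and 8, against 59, 50 and 30 in WT replicates 1, 2 and 3. The lowest WT library held 3 times the reads of the highest Trpm7R/R library. Its RPKM was 0.217 ± 0.0578 in Trpm7R/R and 1.38 ± 0.432 in WT (SD, n = 3 each). The log2 fold change was -2.60 (SE 0.43, unadjusted p = 3.55e-05, edgeR adjusted p = 0.0516), and over 21 alternatives it stayed between -2.81 and -1.25. In the 4 libraries with Y chromosome reads, 1 Trpm7R/R against 3 WT, it was -2.75, and that of Aldoa was -2.59. The other tested genes had -1.73 for Mdh1, -1.14 for Pkm, -0.44 for Gapdh and 0.44 for Eno1 there. With a term for those reads, log2 fold changes were -2.71 for Bsg, -2.55 for Aldoa, -1.69 for Mdh1, -1.10 for Pkm, -0.40 for Gapdh and 0.49 for Eno1. The difference of Gapdh was thus smaller in both settings than its -1.15 as fitted. All Bsg exon reads were uniquely mapped, and none of its 50-base words occurs in another annotated gene. Bsg had 22 exon reads over the Trpm7R/R libraries with 1 exon-exon read, and 139 over the WT libraries with 1 exon-exon read. Over all genes, exon-exon reads equalled 5.83% to 8.67% of exon reads in Trpm7R/R libraries and 6.57% to 8.86% in WT libraries, so junction reads of Bsg were few in WT islets.

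Intron reads of the same genes were compared next, since they come from unspliced RNA or from genomic DNA. Intron density on the X chromosome was 0.60 to 0.81 times that on autosomes in the libraries with Y chromosome reads. It was 1.50 and 1.47 times in Trpm7R/R replicates 6 and 8. How much of the intron reads came from RNA and how much from DNA was not tested. Intron reads of Bsg numbered 29, 11 and 15 in Trpm7R/R replicates 4, 6 and 8, against 10, 11 and 21 in WT replicates 1, 2 and 3. Those of Aldoa numbered 8, 6 and 12 in Trpm7R/R replicates 4, 6 and 8, against 13, 20 and 11 in WT replicates 1, 2 and 3. Bsg overlapped between genotypes in introns, unlike in exons. Raw intron reads of Aldoa overlapped, but set against the background they stood at 0.60 to 0.92 times in Trpm7R/R libraries and 0.98 to 1.78 times in WT libraries, without overlap (2-sided exact permutation test, p = 0.1, the smallest possible). Of the 7 genes that could be tested, 0 had an unadjusted p of at most 0.05, against 1.87% of the 20921 genes tested, and 0% of all genes were called by edgeR. Log2 fold changes of intron reads ran from -0.79 for Aldoa (SE 0.46) to 0.43 for Pkm (SE 0.26). Mdh1 had the densest introns of the 9, at 1.60 to 2.78 times the background in Trpm7R/R libraries and 1.54 to 2.48 times in WT libraries.

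**Figure D3:**
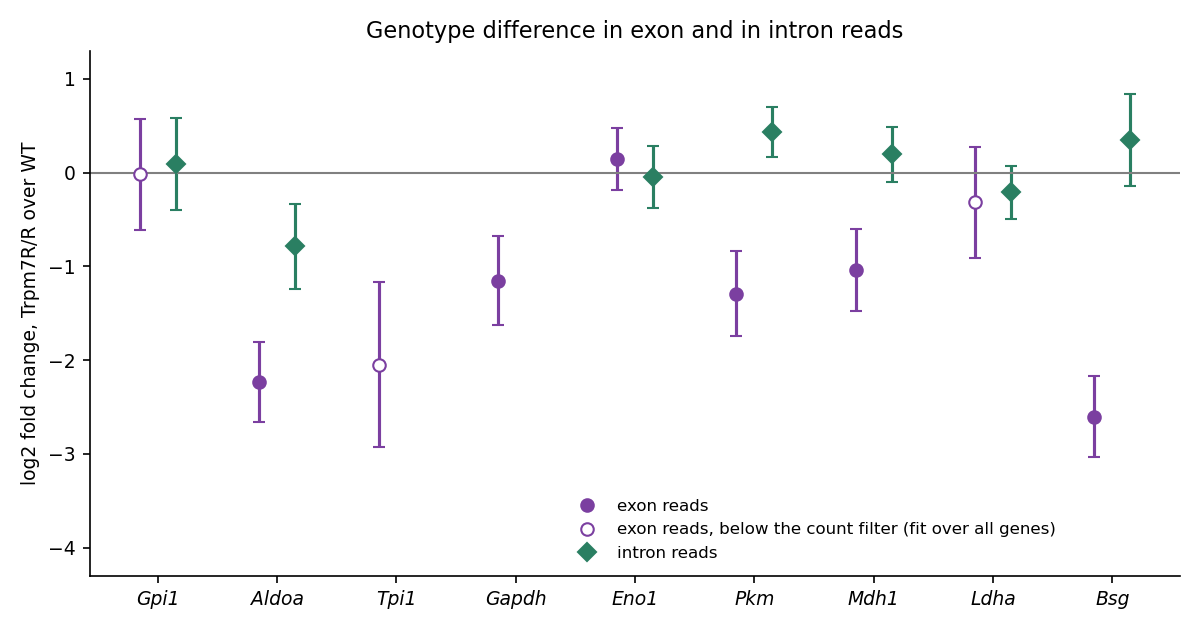
Log2 fold changes of Trpm7R/R over WT with their standard errors (vertical axis) for exon reads (circles, open where the gene was below the count filter) and intron reads (diamonds); Tpi1 and Gapdh had too few intron reads. Exon values of Bsg and Aldoa, at -2.60 and -2.24, lie below their intron values of 0.35 and -0.79, while both values of Eno1 lie near 0.

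The difference between exon and intron reads was tested within each gene, with the library as a block. Bsg had the largest such term, -2.90 on the log2 scale (SE 0.62, unadjusted p = 0.000306, edgeR adjusted p = 0.295). Pkm followed with -1.67 (unadjusted p = 0.00449), Aldoa with -1.43 (unadjusted p = 0.0185) and Mdh1 with -1.22 (unadjusted p = 0.00662), with adjusted p of 0.540 to 0.731 from edgeR. Thus 4 of the 5 genes tested had an unadjusted p of at most 0.05 towards lower exon reads in Trpm7R/R, against 3.56% of the 10106 genes tested, and 0% of these were called after adjustment. Bsg, Aldoa and Mdh1 passed the exon filter through their WT counts, so this share leans the same way. Eno1 had a term of 0.20 (SE 0.37).

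Subtracting the background gave the exon reads that intron density does not account for. Summed over the 9 genes they came to -1.33, -2.63 and -2.91 RPM in Trpm7R/R replicates 4, 6 and 8, against 8.13, 4.53 and 2.12 in WT replicates 1, 2 and 3. Negative values mean that the exons held fewer reads than introns of the same length would. The sum was below 0 in every Trpm7R/R library and above 0 in every WT library (2-sided exact permutation test, p = 0.1, the smallest that 3 against 3 can reach). With each gene's own intron density as background, the sums were 0.63, -0.10 and -0.53 RPM in Trpm7R/R replicates 4, 6 and 8, against 10.9, 6.07 and 3.99 RPM in WT replicates 1, 2 and 3, so the Trpm7R/R sums then lay around 0. With the library's background, Aldoa and Bsg supplied most of the WT sum, with 2.18 ± 0.982 and 2.07 ± 0.775 RPM in WT (SD, n = 3), against -0.13 ± 0.21 and -0.05 ± 0.08 in Trpm7R/R (SD, n = 3). Leaving out Eno1, a choice made after seeing the data, the sums with the library's background were -3.42 ± 0.219 in Trpm7R/R and 3.97 ± 2.76 in WT (SD, n = 3 each).

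Shares of the 9 genes in their summed exon reads do not depend on library scaling. Eno1 took 42.3%, 45.3% and 31.6% of these reads in Trpm7R/R replicates 4, 6 and 8, against 14.8%, 19.5% and 17.6% in WT replicates 1, 2 and 3. A share also rises when the other genes fall, and the exon reads of Eno1 themselves averaged 44.3 in Trpm7R/R and 41.3 in WT. Bsg took 6.57% ± 1.94 in Trpm7R/R and 18.9% ± 2.80 in WT (SD, n = 3 each), and Aldoa 9.87% ± 4.43 in Trpm7R/R and 21.6% ± 2.23 in WT (SD, n = 3 each). None of these 3 genes overlapped between genotypes (2-sided exact permutation test, p = 0.1 each, the smallest possible). The other 6 genes overlapped, Mdh1 with 11.3% ± 5.89 in Trpm7R/R and 10.8% ± 0.47 in WT (SD, n = 3 each). With uniquely mapped reads alone Eno1 had 17.1% ± 3.48 in Trpm7R/R and 7.27% ± 3.31 in WT (SD, n = 3 each).

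In the wider pathway the list medians lay between -0.23 and -0.06 on the log2 scale, and whether the 9 genes differed from these lists was not tested. Of 70 further genes in 5 lists, 37 could be tested and 0 were called by edgeR's quasi-likelihood test, DESeq2 or limma-voom, while ribosomal protein scaling, with its median of 1.33, called 18 of the 37, all higher, and 61.2% of all genes tested. Of 10 genes of glucose uptake and phosphorylation, 6 were tested with a median log2 fold change of -0.14, and 0 of them had an unadjusted p of at most 0.05. The same count was 0 of 7 tested among 17 other glycolytic enzymes (median -0.15), 0 of 11 among 20 other genes of lactate and pyruvate handling (median -0.06) and 0 of 7 among 12 genes of NADH shuttles (median -0.09). Of 11 genes of the pentose phosphate pathway and gluconeogenesis 6 were tested (median -0.23), and 1 had such a p. That gene was Taldo1, on chromosome 7, whose product transaldolase links pentose phosphates to glycolysis. Taldo1 had 4.94 normalized counts on average in Trpm7R/R and 19.0 in WT, a log2 fold change of -1.89 (SE 0.50, unadjusted p = 0.00225, edgeR adjusted p = 0.181). In edgeR's likelihood ratio and exact tests it was called lower (edgeR adjusted p = 0.0206 and 0.0287).

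**Figure D4:**
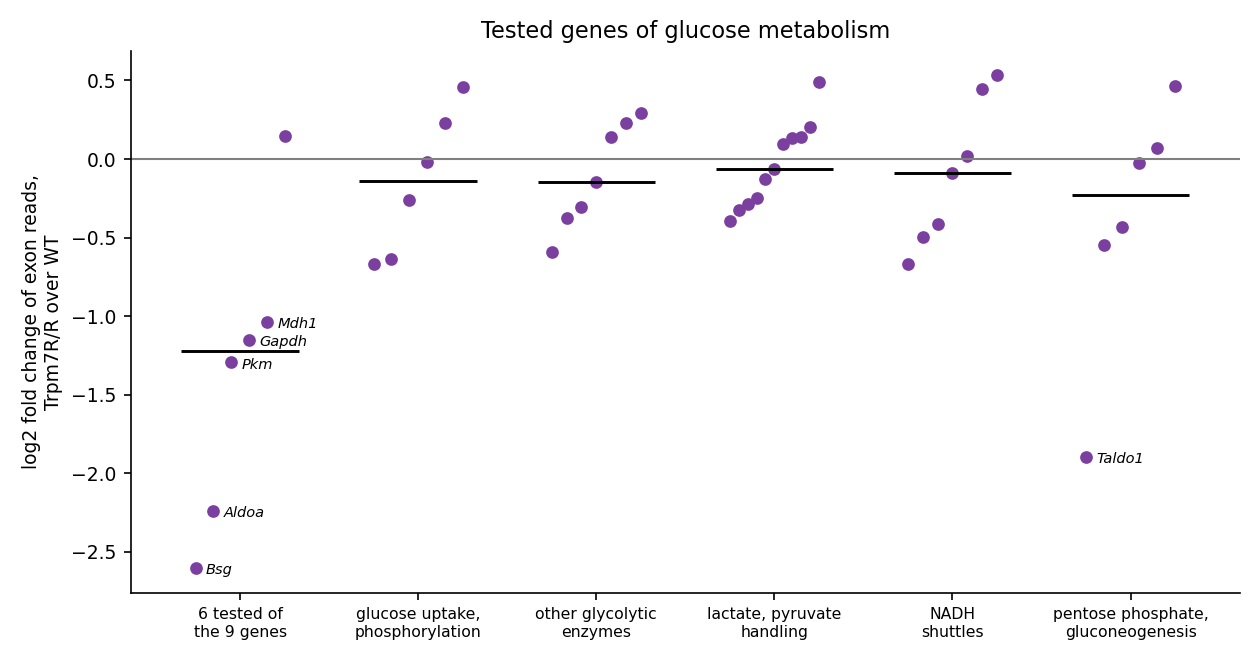
Log2 fold changes of exon reads, Trpm7R/R over WT (vertical axis), of every tested gene in the 6 gene groups (points) with the group median (bar); genes with an unadjusted p of at most 0.05 are named. Medians lie at -1.22 for the 6 tested of the 9 genes and between -0.23 and -0.06 for the other lists, and Eno1 is the one of the 6 above 0.

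The closest relatives of the 9 genes were compared by name. Aldoc, the aldolase best known from brain, had 44.5 normalized counts on average in Trpm7R/R and 49.5 in WT (log2 fold change -0.15, SE 0.36). Mdh2, the mitochondrial malate dehydrogenase, had 58.1 in Trpm7R/R and 77.5 in WT (-0.41, SE 0.32). Emb, which encodes embigin, a relative of basigin that also accompanies lactate transporters, had 47.1 in Trpm7R/R and 58.8 in WT (-0.32, SE 0.43). For each of these 3 relatives the groups overlapped and the sign was positive in some of the 21 alternatives. Over these, log2 fold changes ran from -0.51 to 1.19 for Aldoc, from -0.72 to 0.89 for Mdh2 and from -1.69 to 1.03 for Emb. The lowest value of Emb came from the libraries with Y chromosome reads. Eno2, Eno3, Pklr, Ldhb and Slc16a1 were below the count filter.

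Over the 6 libraries the log2 normalized counts of Bsg and Aldoa had a Pearson correlation of 0.99, those of Aldoa and Mdh1 0.94, and those of Eno1 and the other 5 tested genes between -0.49 and 0.28. The points of these correlations share the difference between the genotypes. Of 2177 genes with at least 50 normalized counts on average, those most like the mean of the 6 standardized genes were Gnas, Acly, Ppia, Mafa and Ubb, with correlations of 0.97 to 0.99 over the same 6 libraries. Gnas encodes the stimulatory G protein α subunit, Acly ATP citrate lyase, Ppia cyclophilin A, Mafa a β cell transcription factor and Ubb ubiquitin. Mafa was also among the β cell markers, with 25.5 to 27.6 normalized counts in Trpm7R/R libraries and 59.5 to 197 in WT libraries.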

How the data were processed

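RNA from cultured islets of 3 HFD-fed Trpm7R/R and 3 HFD-fed WT mice was sequenced on a NovaSeq system. Per library the authors deposited raw counts of reads in exons, introns, whole genes and across exon-exon junctions, each for all reads and for those mapped uniquely. The deposited RPKM values relate exon reads to the length of the exons and to the number of mapped reads, which was worked out from them. Aligner and counter: not given in the sources used here. Processing notes of the submitters name mm10, but genes lie at other positions in the files than in GRCm38, so only their chromosomes are given. The authors' own comparison, with fold changes and p-values, was not used.

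Counts were fitted with edgeR 4.0.16 (R 4.3.3, limma 3.58.1, quasi-likelihood test, TMM scaling, filterByExpr with a minimum of 10) on genotype alone over 11674 genes, with Benjamini-Hochberg adjustment over all of them. The common dispersion was 0.103. Exon-exon and intron reads were fitted likewise, and exon against intron reads with the library as a block. Single values were compared by 2-sided exact permutation tests. The pipeline was tested on simulated counts. It called 75% of 92 genes with a 4-fold change, 6.12% of 98 genes with a 2-fold change and 1 of 10812 unchanged genes. A 2-fold change was thus seldom called at this depth. Alternatives covered 4 scalings, 2 filters, unique and whole-gene reads, DESeq2 1.42.0, other tests, Y chromosome reads and each library left out. Python 3.11.15 was used with scipy 1.17.1, numpy 2.4.6, pandas 2.3.3 and, for the plots, matplotlib 3.10.9.

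The 9 genes, the lists and the tests were chosen with earlier results of these data known. Genes named beside the 9 are tested pathway genes with an unadjusted p of at most 0.05, relatives of the 9 and the 5 genes whose counts followed them most closely. The paper describes WT mice as littermates from heterozygous breeding, and the labels do not tie single mice to litters. The p-values of the fits set the genotype difference against the spread between these libraries.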

Additional observations from a re-analysis of the deposited data

How the results depend on the processing

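Counts near 10 reads set the limits: the 9 genes held at most 75 exon reads each in a library, and Gpi1, Tpi1 and Ldha lay under the intron background. No fit of exon reads called Gpi1, Tpi1 or Ldha at so few reads, although exon densities of Tpi1 and Ldha did not overlap between genotypes. No paired analysis was possible because the labels give no litter or pair for single mice.

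Of the 9 genes 0 were called in exon reads as fitted. The number was 2 with upper quartile scaling, all genes with at least 1 count, at least 10 reads in every library of 1 genotype, the DESeq2 Wald test, edgeR's likelihood ratio and exact tests and limma-voom, 1 with library size only (Bsg, lower) and 1 with ribosomal protein scaling (Eno1, higher). It ran from 0 to 2 with 1 library left out, and from 0 to 1 for exon-exon reads. All calls other than those of Eno1 were of Bsg or Aldoa, the shares of all genes called ran from 0.197% with library size only to 61.2% with ribosomal protein scaling, and the cause was not tested.

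Signs turned as follows, in genes that were not called as fitted, as none of the genes followed was. With ribosomal protein scaling, log2 fold changes were 0.12 for Gapdh, 0.035 for Pkm, 0.31 for Mdh1, 1.19 for Aldoc, 1.03 for Emb, 0.89 for Mdh2 and 0.35 for Ppia, where the median of all genes was 1.33. With total gene reads they were 0.061 for Gpi1, 0.051 for Pkm, 0.045 for Mdh1 and 0.036 for Emb. In libraries with Y chromosome reads they were 0.64 for Gpi1, 0.19 for Aldoc and 0.016 for Mdh2, and with a term for those reads 0.23 for Aldoc and 0.057 for Mdh2. Eno1 had -0.056 with unique reads and -0.016 with limma-voom, and Emb 0.14 with limma-voom. With 1 library left out, exon values ran from -0.049 to 0.38 for Eno1, from -0.37 to 0.10 for Aldoc and from -0.60 to 0.084 for Emb, and intron values from -0.57 to 0.42 for Gpi1, from -0.20 to 0.063 for Eno1 and from -0.089 to 0.75 for Bsg.

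Differences in shares of the summed reads, Trpm7R/R minus WT in percentage points, were 9.85 for Eno1, 1.57 for Pkm and 3.50 for Ldha with unique reads, and -7.38 for Mdh1, -0.33 for Bsg and 0 for Tpi1 in exon-exon reads. The background-subtracted sum stayed below WT under each alternative, but with each gene's own intron density it was above 0 in Trpm7R/R replicate 4.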
